A study of Arabidopsis thaliana with 4 samples.

Results

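COR15A (AT2G42540), COR15B (AT2G42530) and COR47 (AT1G20440) are cold-regulated genes of Arabidopsis thaliana, and their transcripts were measured in seedlings of the Atdi19-3 mutant and of the wild type. A gene was included where the platform's probe-to-gene table assigns a probe set to it and to no other gene. Each of the 3 genes had 1 such probe set, out of 22810 probe sets on the Affymetrix ATH1 array, and 0 further probe sets listed a COR gene together with another gene. Atdi19-3 is a homozygous T-DNA insertion line, SALK_072390, with its insertion in the gene of the Di19 zinc finger protein AtDi19-3, and it is a single allele. The allele is taken from the methods of the study, since the sample labels name the mutant only as Di19. Both genotypes were in the Col-0 ecotype and were sampled as whole seedlings aged 10 days, after 72 h of stratification and growth on medium at 22 °C in cycles of 16 h light and 8 h dark. The stratification was itself a cold treatment, given before growth to the seeds of both genotypes. No cold, drought or hormone was applied to the growing seedlings of either genotype, so the values are basal transcript levels of untreated seedlings. There were 2 arrays of Atdi19-3 and 2 of the wild type, which the labels call biological replicates.

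COR genes are induced when a plant meets low temperature, and many of them also respond to drought and to abscisic acid (ABA), the hormone of water stress. Under cold, the CBF transcription factors bind a short element in the COR promoters, the CRT/DRE, and switch the genes on as a group, which raises freezing tolerance. COR15A and COR15B are closely related proteins that are imported into the chloroplast, where they protect membranes during freezing. COR47 is a dehydrin, a hydrophilic protein that accumulates in cells that lose water.

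Each value below is the authors' background-corrected, normalized log2 value of a probe set, so a difference of 1 stands for a 2-fold difference in signal. Of the 22810 probe sets, 64 are controls, and the other 22746 were compared with limma, a linear model fitted to every probe set with a shared estimate of the spread. A probe set was called at a Benjamini-Hochberg adjusted p under 0.05 over all 22746. The arrays of the genotypes stood apart in their controls: all 18 hybridization spike-in probe sets were lower on both Atdi19-3 arrays, with array medians of 5.92 and 6.20 on the Atdi19-3 arrays and of 9.69 and 9.41 on the wild-type arrays. The difference between the 3' and 5' probe sets for ubiquitin was 1.4 and 0.67 on the Atdi19-3 arrays and 3.67 and 4.18 on the wild-type arrays. The same difference for GAPDH was 2.39 and 2.54 on the Atdi19-3 arrays and 3.96 and 5.15 on the wild-type arrays, whereas for actin it was nearly equal, at 4.71 and 4.62 on the Atdi19-3 arrays and 4.56 on both wild-type arrays. Of 6 leaf and cotyledon markers 4 had a named probe set, and their mean was 8.92 and 9.10 on the Atdi19-3 arrays and 5.72 and 5.53 on the wild-type arrays. CA1 and GAPA among them are named only through a list picked for a higher signal in the mutant, so their direction is not independent. The mean of the other 2, the light-harvesting genes LHCB4.1 and LHCB4.2, was 8.70 and 8.80 on the Atdi19-3 arrays and 4.68 and 4.72 on the wild-type arrays. Both were called higher, as were 3.16% of all tested probe sets. No probe set is named here for any of the root, seed, flower and senescence markers, so these tissues were not checked. These measures, apart from actin, split the arrays as the genotype does. Their part in the values below cannot be told apart from that of the mutation, nor can fewer cells of a type from less transcript per cell. AtDi19-3 itself was not analysed here, because no probe set is named for it.

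On the deposited values the COR genes were lower on every Atdi19-3 array than on every wild-type array, by about the same amount, a direction that turns round when the arrays are centred on their spike-ins. COR15A read 5.99 and 6.14 on the Atdi19-3 arrays, against 6.93 and 7.05 on the wild-type arrays. COR15B read 6.08 and 6.69 on the Atdi19-3 arrays, against 7.36 and 7.52 on the wild-type arrays. COR47 read 6.50 and 6.37 on the Atdi19-3 arrays, against 7.42 and 7.22 on the wild-type arrays. For each gene the higher Atdi19-3 array lay below the lower wild-type array, by 0.79 for COR15A, 0.67 for COR15B and 0.72 for COR47. Both Atdi19-3 arrays lay below both wild-type arrays for 10.4% of all tested probe sets, and above both for 28.5%. All 3 genes were far above 2.49, the lowest value on any array, in both genotypes, so none of these differences is limited by the floor.

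**Figure D1:**
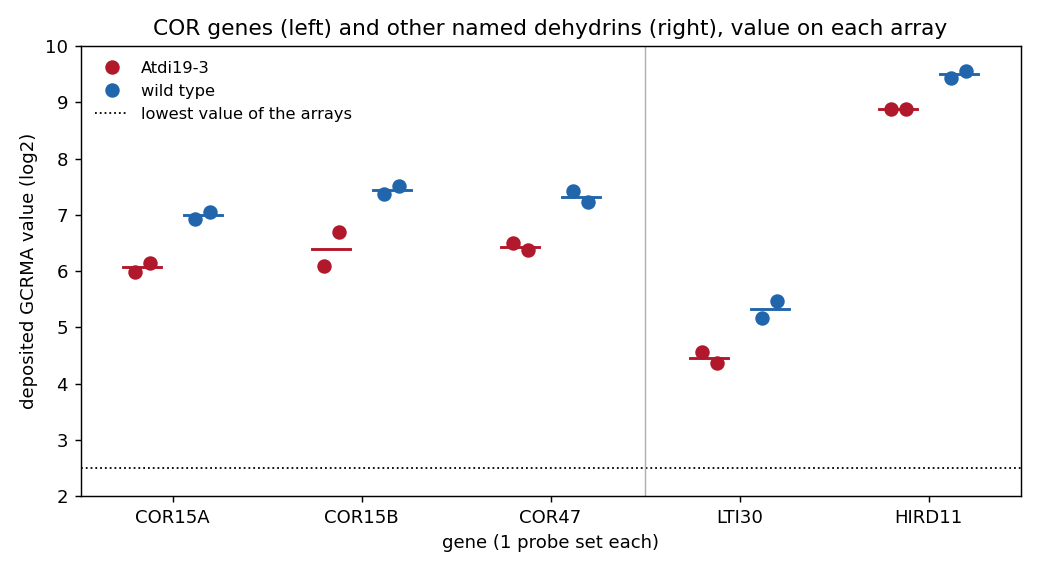
Deposited log2 value (vertical axis) on each of the 4 arrays for COR15A, COR15B and COR47 and for 2 other dehydrin genes, LTI30 and HIRD11. These 2 were singled out after their values were seen. Red points are the Atdi19-3 arrays, blue points the wild-type arrays, short lines the genotype means, and the dotted line the lowest value of the arrays, 2.49. For all 5 genes both red points lie below both blue points on the deposited values, an order that centring on the spike-ins turns round. Of the 6 other cold-induced effector genes named by the platform table, only LTI30 and HIRD11 had this order, and 3 had the opposite one.

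The mean difference was -0.93 for COR15A (standard error 0.09, 95% interval -1.25 to -0.61), -1.05 for COR15B (standard error 0.28, 95% interval -2.07 to -0.04) and -0.88 for COR47 (standard error 0.10, 95% interval -1.26 to -0.51). On a linear scale, the Atdi19-3 signal was 52.5% of the wild-type signal for COR15A, 48.2% for COR15B and 54.2% for COR47. None of the 3 passed the test over all probe sets, with limma adjusted p of 0.072 for COR15A, 0.26 for COR15B and 0.092 for COR47 and unadjusted p of 0.0040, 0.046 and 0.0069 in the same order. For comparison, 0.602% of all tested probe sets were called lower and 3.16% higher. With the limma p, COR15B alone met the cutoff of the study, which asks for a difference over 2-fold and an unadjusted p no higher than 0.05. COR15A and COR47 missed this cutoff by the size of the difference only. In the lower direction 0.365% of probe sets met it. On simulated arrays with the same spread, 9 of 50 bright probe sets lowered by 1 were called. Fewer probe sets were changed there than were called here, which alters the adjusted threshold. The simulated share therefore does not give the chance of a call in these data. A missed call at this size was not read as no change.

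Only the test, and not the difference, moved when dim probe sets were left out. Of the 2334 probe sets with a mean over the 4 arrays of at least 4, limma called 7.2% lower and 1170 probe sets higher. A call was thus common in this fit. All 3 COR genes were among those called lower (limma adjusted p = 0.010 for COR15A, 0.025 for COR15B and 0.013 for COR47). The fold changes were those given above. With fewer probe sets tested and another estimate of the shared spread, the COR genes crossed the threshold.

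Most bright probe sets went the other way. Of the 596 tested probe sets with a mean over 6, 191 had a lower value in Atdi19-3, and 52 of these, the COR genes included, were lower by at least the difference of COR47. Among the 500 probe sets nearest to COR15A in their mean over the 4 arrays, the median log2 fold change was 0.68, and 30 of them (6%) had a log2 fold change below that of COR15A. The corresponding count was 28 of 500 (5.6%) for COR15B, with a median of 0.59, and 42 of 500 (8.4%) for COR47, with a median of 0.58. Without the first Atdi19-3 array these shares were 11.2% for COR15A and 14.6% for COR15B, over 1.5 times as large. The share of COR47 was 11.4% without the second Atdi19-3 array and 5% without the second wild-type array. Set against that median over all 4 arrays, COR15A lay 1.61 lower, COR15B 1.64 lower and COR47 1.47 lower. Both Atdi19-3 arrays lay below both wild-type arrays for 21.0% to 22.4% of these equally bright probe sets. The 3 sets of neighbours overlap, with 410 to 491 probe sets in common between any pair, so the ranks are not independent of each other.

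**Figure D2:**
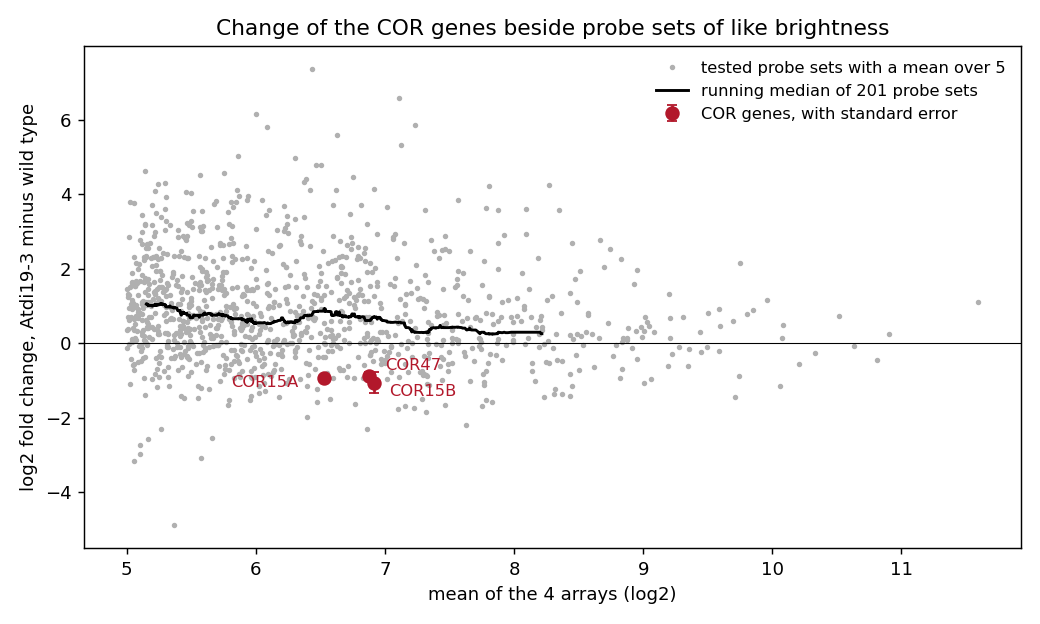
Log2 fold change, Atdi19-3 minus wild type (vertical axis), against the mean of the 4 arrays (horizontal axis, log2) for tested probe sets with a mean over 5, in grey. The black line is a running median over the probe sets, and the red points with standard errors are COR15A, COR15B and COR47. On the deposited values the COR genes lie below 0 and the running median above it, and centring on the spike-ins lifts all points alike by 3.49.

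The arrays were also scaled in 3 other ways, of which only quantile normalization can move the COR genes relative to the other probe sets. It brought the differences to -1.74 for COR15A, -1.81 for COR15B and -1.62 for COR47. COR15A was then called (limma adjusted p = 0.045), as were 0.69% of all tested probe sets in the lower direction. COR15B (limma adjusted p = 0.13) and COR47 (limma adjusted p = 0.066) were not. COR15A, COR15B and COR47 then ranked at 6.8%, 5.6% and 9.2% among equally bright probe sets. On the deposited values these ranks were 6%, 5.6% and 8.4%, so the ranks changed little. Centring the arrays on the probe sets with a mean over 6 gave -1.71 for COR15A, -1.83 for COR15B and -1.66 for COR47, all called, but this centring moved every probe set alike by -0.78, the median of all tested probe sets included, and called 82% of them lower. Centring on the spike-ins turned the sign, to 2.56 for COR15A, 2.44 for COR15B and 2.61 for COR47, and raised the log2 fold change of every probe set by the same 3.49. Both centrings leave the distance of the COR genes from the median of all tested probe sets as it was, by construction.

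**Figure D3:**
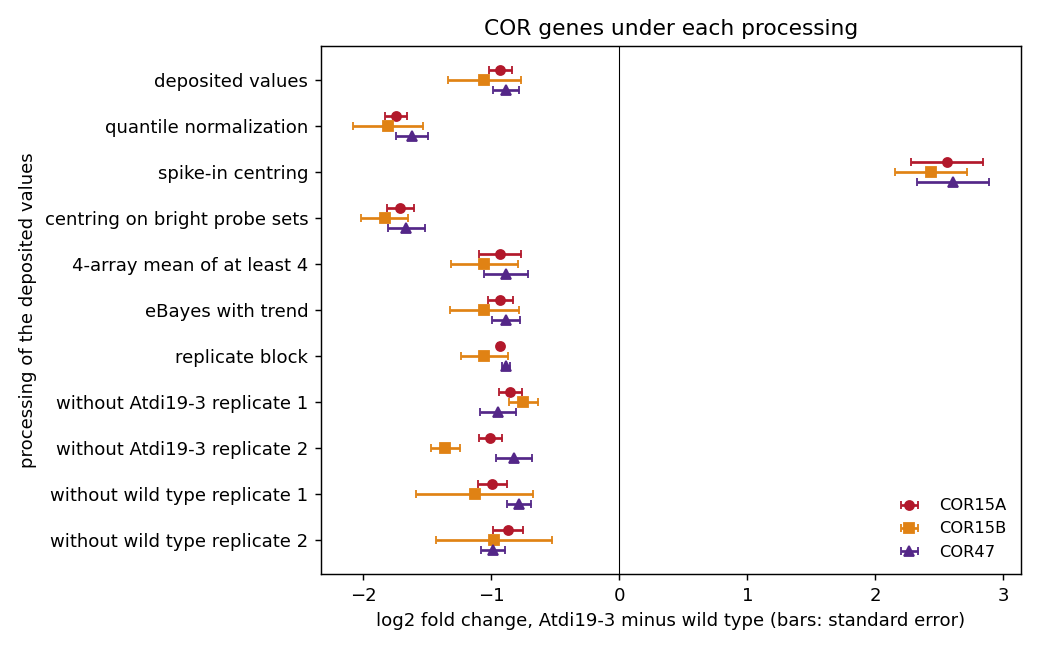
Log2 fold change, Atdi19-3 minus wild type, with its standard error (horizontal axis) for COR15A (circles), COR15B (squares) and COR47 (triangles) under each processing of the deposited values (rows). The values lie between -1.83 and -0.75 in every row except spike-in centring, where they lie between 2.44 and 2.61.

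The estimated changes of the COR genes were close to each other, but each difference between them was smaller than its standard error. A true difference between the genes could thus have been missed. The change of COR15A was 0.12 smaller in size than that of COR15B (standard error 0.23) and 0.04 larger than that of COR47 (standard error 0.21), and the changes of COR15B and COR47 differed by 0.17 (standard error 0.41). These differences were not tested. The spread between replicates was uneven. The Atdi19-3 arrays were 0.15 apart for COR15A, 0.61 for COR15B and 0.13 for COR47. The wild-type arrays were 0.12 apart for COR15A, 0.15 for COR15B and 0.20 for COR47. The first Atdi19-3 array held the lower value of COR15A and COR15B and the higher value of COR47. Without it the difference of COR15B was -0.75, and without the second Atdi19-3 array it was -1.36, a ratio of over 1.5 between them, whereas COR15A (-0.85 and -1.01) and COR47 (-0.95 and -0.82) moved less.

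COR15A and COR15B are neighbouring genes on chromosome 2 and are close in sequence. Whether their probe sets cross-hybridize was not tested, since no probe sequence was analysed here. Of the 3 protein-coding genes on the outer side of this pair in either direction, those with a named probe set were at or near the floor in the wild type. AT2G42520, next to COR15B, read 2.56 and 2.52 on the Atdi19-3 arrays and 2.52 and 2.52 on the wild-type arrays. AT2G42560, beyond COR15A, read 2.73 and 2.81 in Atdi19-3 and 2.73 and 2.73 in the wild type. TBL39 (AT2G42570) was called higher, at 3.25 and 3.34 on the Atdi19-3 arrays and 2.52 on both wild-type arrays, a difference of at least 0.77 because the wild-type values can be the floor (limma adjusted p = 0.038). ERD10, the dehydrin gene next to COR47 on chromosome 1, has no named probe set here. On the other side of COR47, AT1G20430 read 3.65 and 3.43 on the Atdi19-3 arrays and 2.98 and 3.39 on the wild-type arrays (limma adjusted p = 0.58), and AT1G20410 had a log2 fold change of -0.29 (limma adjusted p = 0.58). AT1G20410 averaged 3.34 ± 0.08 on the Atdi19-3 arrays and 3.63 ± 0.32 on the wild-type arrays (SD, n = 2 each), and no other measured neighbour outside the COR15 pair had a negative log2 fold change.

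Of the 39 other cold-induced effector genes that were listed, 6 are named by the platform table, and limma called 0 of them in either direction, with 2 lower and 2 higher at an unadjusted p under 0.05, which 3.85% of all tested probe sets met in the lower and 14.6% in the higher direction. Their median log2 fold change was -0.05, against 0.00 for all tested probe sets and -0.93 for the COR genes. LTI30 (AT3G50970), a dehydrin induced by low temperature, read 4.56 and 4.37 on the Atdi19-3 arrays, against 5.17 and 5.48 on the wild-type arrays, a log2 fold change of -0.86 (standard error 0.16, limma adjusted p = 0.16). HIRD11 (AT1G54410), a small dehydrin that binds metals, read 8.89 and 8.89 on the Atdi19-3 arrays, against 9.43 and 9.56 on the wild-type arrays, a log2 fold change of -0.61 (standard error 0.06, limma adjusted p = 0.074). LTI30 and HIRD11, singled out here as dehydrins after their values were seen, had both Atdi19-3 arrays below both wild-type arrays, an order that spike-in centring turned round (2.63 for LTI30 and 2.88 for HIRD11). The same order held for 8.6% of the probe sets equally bright as LTI30 and for 24.4% of those equally bright as HIRD11. Of the 500 probe sets nearest in brightness, 18 had a log2 fold change below that of LTI30 and 69 below that of HIRD11.

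COR27 (AT5G42900) and COR28 (AT4G33980), a pair of related cold-induced genes tied to the circadian clock, had log2 fold changes of 0.23 (limma adjusted p = 0.099) and -0.10 (limma adjusted p = 0.61). COR27 turned to -0.61 after quantile normalization, and on the deposited values it lay 0.71 below the median of equally bright probe sets. LEA4-5 (AT5G06760), a late embryogenesis abundant protein, lay between 2.55 and 2.57 on every array, at the floor. SRC2 (AT1G09070), named for a soybean gene regulated by cold, read 6.23 and 5.42 on the Atdi19-3 arrays, against 3.18 and 3.98 on the wild-type arrays, a log2 fold change of 2.25 (standard error 0.51, limma adjusted p = 0.21).

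A further 5 effectors are named only through the study's supplementary list of differentially expressed genes, and the part of that list used here holds genes picked because their signal was higher in the mutant. Their direction is no independent evidence. COR413-PM1 (AT2G15970), a cold-regulated protein of the plasma membrane, read 5.78 and 5.82 on the Atdi19-3 arrays, against 3.50 and 3.41 on the wild-type arrays, and was called higher (log2 fold change 2.35, limma adjusted p = 0.020). Its relative COR413-PM2 (AT3G50830) had a log2 fold change of 1.17 (limma adjusted p = 0.11). BAM3 (AT4G17090), a chloroplast beta-amylase that degrades starch, was at least 5.65-fold higher (limma adjusted p = 0.039). Of the lipid transfer proteins, LTP4 (AT5G59310) was at least 3.70-fold higher (limma adjusted p = 0.048), and LTP3 (AT5G59320) read 4.88 and 5.12 on the Atdi19-3 arrays and 2.75 and 4.22 on the wild-type arrays (limma adjusted p = 0.48). Folds are lower bounds where a wild-type array read under 3.

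**Figure D4:**
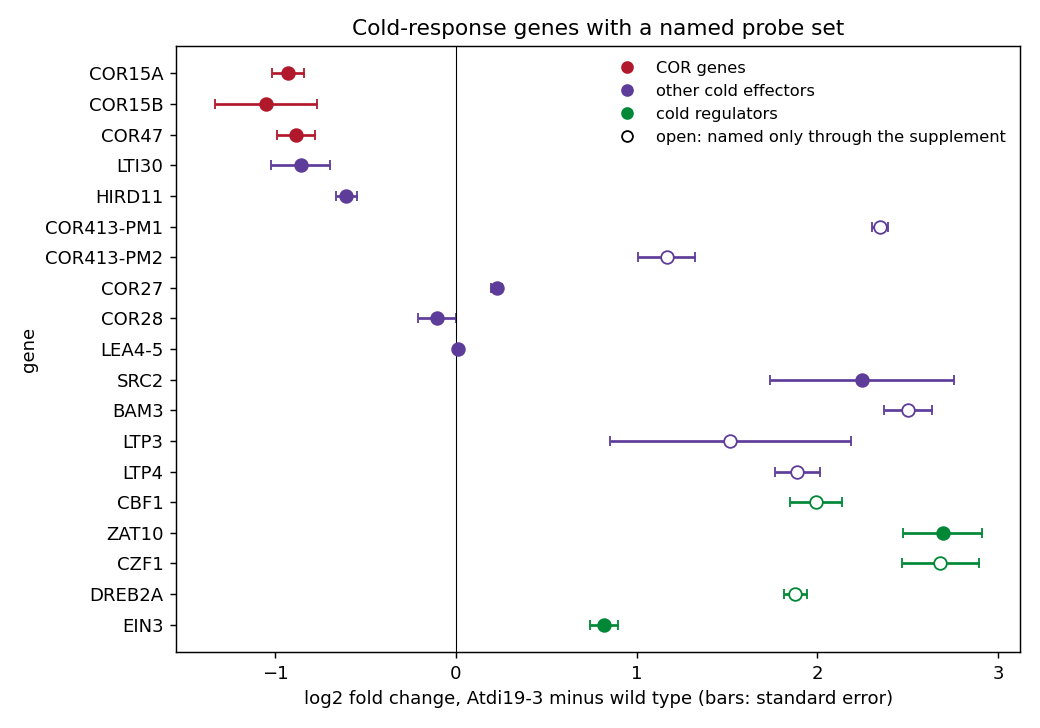
Log2 fold change, Atdi19-3 minus wild type, with its standard error (horizontal axis) for the cold-response genes with a named probe set (rows): COR genes in red, other effectors in purple, regulators in green. Open points are genes named only through the supplementary list, which holds genes picked for a higher signal. COR15A, COR15B, COR47, LTI30 and HIRD11 lie between -1.05 and -0.61 on the deposited values, a sign that spike-in centring reverses. LTI30 and HIRD11 were singled out after their values were seen. The other effectors named by the platform table lie between -0.10 (COR28) and 2.25 (SRC2). The effectors named only through the supplementary list lie at 1.17 or above, and the 5 regulators between 0.82 and 2.69.

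Of 22 listed regulators, 2 are named by the platform table and 3 only through the supplementary list, and the direction of those 3 was fixed by how that list was picked. For the other 2, ZAT10 and EIN3, both Atdi19-3 values exceeded both wild-type values, as they did for 298 of the 500 probe sets nearest in brightness to ZAT10 and for 359 of the 500 nearest to EIN3. Limma called 0 of the 2, both of which had an unadjusted p under 0.05, and 1 of the 3. Over all tested probe sets, limma called 3.16% higher, and 14.6% were higher at an unadjusted p under 0.05. CBF1 (AT4G25490), the activator that binds the CRT/DRE of COR promoters, read 4.85 and 4.88 on the Atdi19-3 arrays, against 2.71 and 3.03 on the wild-type arrays. This is at least 3.98-fold higher and just missed the threshold (limma adjusted p = 0.051). DREB2A (AT5G05410), which binds the same element under drought and heat, was called, at 5.04 and 4.92 on the Atdi19-3 arrays and 3.14 and 3.07 on the wild-type arrays (log2 fold change 1.88, limma adjusted p = 0.027). CBF1 and DREB2A are both named only through the supplementary list.

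The zinc finger repressor ZAT10 (AT1G27730) read 8.10 and 8.08 on the Atdi19-3 arrays, against 5.16 and 5.64 on the wild-type arrays, a log2 fold change of 2.69 (standard error 0.22, limma adjusted p = 0.059). CZF1 (AT2G40140), another zinc finger gene induced by cold, was at least 6.41-fold higher (limma adjusted p = 0.058). EIN3 (AT3G20770), a transcription factor of ethylene signaling that represses CBF genes, had 0.82 (limma adjusted p = 0.071), which quantile normalization reduced to -0.04. Of the probe sets equally bright, 89.2% had a log2 fold change below that of ZAT10, and 45.0% below that of EIN3. ZAT10 thus lay high among its like in brightness, while COR15A, COR15B and COR47 lay low.

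COR genes also follow the circadian clock, and the sources used here do not give the time of harvest. Of 13 clock genes, GI (AT1G22770) is named by the platform table and TOC1 (AT5G61380) only through the supplementary list. GI read 3.76 and 3.30 on the Atdi19-3 arrays and 2.49 and 2.73 on the wild-type arrays (log2 fold change at least 0.92, limma adjusted p = 0.24). TOC1 was at least 3.10-fold higher, at 4.16 and 4.23 on the Atdi19-3 arrays and 2.54 and 2.58 on the wild-type arrays (limma adjusted p = 0.021). None of the 14 listed genes of ABA signaling and response has a named probe set here, so that branch was not analysed. The part of the clock in the COR values was not tested.

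Genes with a pattern like that of the COR genes were sought among the 235 single-gene probe sets of the platform table with a mean over 6. Each profile of 4 values was centred on its own mean, and the Euclidean distance to the mean profile of the COR genes was taken, on the log2 scale. The nearest were AT5G39570 (0.045), the plastid gene ccsA (0.10), which encodes a protein of cytochrome c biogenesis, AT4G27657 (0.19), AT1G01170 (0.20) and AT5G54940 (0.20). AT5G39570 read 6.83 and 7.06 on the Atdi19-3 arrays, against 7.90 and 7.97 on the wild-type arrays. Among the COR genes themselves, COR15A lay 0.08 from their mean profile, COR47 0.29 and COR15B 0.31, and 12 of the 235 lay nearer than COR15B. With 4 arrays, such likeness rests on little more than the difference between the genotypes.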

How the data were processed

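RNA of whole seedlings was labelled with biotin from the 3' end (500 ng per array) and hybridized to 4 ATH1 arrays. The submitters' processing notes name GCRMA and R 3.4.0, and the authors deposited log2 values after background correction and normalization, 1 for each probe set on each array. The sources used here do not say how the arrays were scaled to each other, and scans were not analysed here.

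The deposited values were fitted in R 4.3.3 with limma 3.58.1 (lmFit and eBayes), Atdi19-3 against wild type, without a covariate, a block or a filter. The prior was worth 0.48 degrees of freedom, so the spread of each probe set rests mostly on its own 4 arrays. Adjusted p-values are those of Benjamini and Hochberg over 22746 probe sets. The fit was tested on simulated data of 22746 probe sets, in which 9, 19 and 32 of 50 bright probe sets lowered by 1, 2 and 4 were called, with 0 wrong signs.

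The platform table gives 1 gene for 13513 tested probe sets, several for 503 and none for 8730, and 13436 matched a locus of the RefSeq TAIR10.1 table. The supplementary list named 986 more probe sets, of which part was used. Probe sets that list several genes name none. The number of arrays limits the precision.

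The COR genes and the gene lists (regulators, effectors, ABA, clock, tissue markers) were chosen with earlier results of these data known. Of the lists, the text names every called member and the 4 with the smallest p, all regulators and effectors with a mean over 4, measured loci within 3 genes of a COR gene and the 5 genes of most similar profile. Brightness ranks used the 500 nearest probe sets. Alternatives were quantile normalization, centring on spike-ins or bright probe sets, a filter on dim probe sets, a trended prior, a replicate block, each array left out, and other windows for the ranks. The replicate numbers are shared by both genotypes, but the deviations of same-numbered arrays correlated by only 0.02, so they were not used as pairs.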

Additional observations from a re-analysis of the deposited data

How the results depend on the processing

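COR15A, COR15B and COR47 kept a negative log2 fold change under 9 of the 10 alternatives each. Most of these alternatives could not turn the sign, so the count is no measure of robustness. The filter on dim probe sets, the trended prior and the replicate block leave the fold change as it was. Centring on bright probe sets lowers every probe set alike. Leaving out a single array cannot turn the sign where both Atdi19-3 arrays lie below both wild-type arrays. Spike-in centring gave 2.56, 2.44 and 2.61, and reversed LTI30 (2.63), HIRD11 (2.88) and COR28 (3.39), by raising every probe set alike. The COR genes were called with a 4-array mean of at least 4 (-0.93, -1.05 and -0.88) and with centring on bright probe sets (-1.71, -1.83 and -1.66), and quantile normalization called COR15A (-1.74). With single arrays left out, COR15A ran from -1.01 to -0.85, COR15B from -1.36 to -0.75 and COR47 from -0.98 to -0.79, not called in any. With the replicate block they had -0.93, -1.05 and -0.88 (limma adjusted p of 0.14, 0.32 and 0.15), and limma called 0 probe sets lower and 0 higher, against 137 and 718 without it, since the block leaves 1 residual degree of freedom. At an unadjusted p under 0.05 the block gave 773 lower and 2865 higher.

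Over all probe sets, quantile normalization called 268 higher, spike-in centring 2 lower and 22740 higher, and centring on bright probe sets 18653 lower and 1180 higher. The filter on dim probe sets called 1170 higher. The thresholds of the study, applied here to the limma p, gave 83 lower and 1441 higher. The test behind the study's own p-values was not reproduced, so its counts can differ. Without single arrays the lower calls ran from 0 to 2768 and the higher calls from 0 to 886, with 0 in both directions without either Atdi19-3 array (at an unadjusted p under 0.05, 512 lower and 3256 higher without the first, and 518 and 3415 without the second). Of the 6 effectors named by the platform table, 1 was called lower after quantile normalization, as were 0.69% of all tested probe sets. Centring on bright probe sets called 5 lower and 1 higher, where 82% of all tested probe sets were called lower. The filter kept 4 effectors and called 2 lower and 1 higher, against 168 lower and 1170 higher of all 2334 kept. Spike-in centring called all 6 higher, as it did 22740 of all 22746 probe sets. Without single arrays 0 to 1 effector was called lower and 0 to 1 regulator higher. Of the 2 regulators named by the platform table, 2 were called higher after spike-in centring, 1 after centring on bright probe sets and 2 with the filter. Over all probe sets the higher calls were 22740 of 22746, 1180 of 22746 and 1170 of 2334, in the same order of settings. Spike-in centring also called 1 clock gene. Reversals outside the COR genes were EIN3 (-0.044) and COR27 (-0.61) after quantile normalization, COR27 (-0.55) and LEA4-5 (-0.77) after centring on bright probe sets, and COR28, which ran from -0.22 to 0.015 without single arrays and was positive without the first wild-type array.

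The rank of COR15A moved from 6% to 3.4% with brightness taken from the Atdi19-3 arrays and to 10.8% with brightness from the wild-type arrays, that of COR15B from 5.6% to 2.8% and 10.2%, and that of COR47 from 8.4% to 4.4% and 13.6%. With 200 probe sets COR15B had 3.5% and COR47 6%. Without single arrays COR15A ran from 5.2% to 11.2%, COR15B from 4.4% to 14.6% and COR47 from 5% to 11.4%. The cause of these shifts was not tested. Signal over background did not limit the COR genes, but it did for CBF1, CZF1, BAM3, LTP3, LTP4, GI, TOC1 and LEA4-5.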

Other observations

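The direction of change depended on brightness across the arrays. Below a mean of 3, where most probe sets lie, 50.4% of 15851 had a negative log2 fold change on the deposited values. The share was 15.2% of 1214 probe sets with a mean from 4 to 5, 28.0% of 304 from 6 to 7, where COR15A, COR15B and COR47 lie, and 36.9% of 122 at 8 and above. The median log2 fold change in these 4 groups was 0.00, 0.88, 0.69 and 0.25. Taking 1 Atdi19-3 array against 1 wild-type array at a time, 5.8% to 9% of equally bright probe sets lay below COR15A, 3.2% to 13% below COR15B and 6.4% to 11.6% below COR47.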
